A study of Mus musculus with 31 samples.

Results

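Rpl10 and 5 partners of its loading and of the late maturation of the large ribosomal subunit were examined, namely Nmd3, Lsg1, Sbds, Eif6 and Xpo1. They were chosen by gene symbol and were present in both gene tables, as 6 of 41255 rows. The libraries came from Ba/F3, a mouse lymphoid cell line that depends on interleukin-3. In every culture, WT included, endogenous Rpl10 had been knocked down with an shRNA while a retrovirus supplied human RPL10, either WT or carrying R98S, a change of arginine 98 to serine found in T-cell acute lymphoblastic leukemia. Each culture was a monoclonal line picked for strong knock-down, so that R98S is represented by clones 11, 13 and 35 and WT by clones 28, 29 and 36. Total mRNA was sequenced in 9 R98S and 8 WT libraries, and polysomal RNA, from gradient fractions with 2 or more ribosomes on a transcript, in 8 R98S and 6 WT libraries. The 14 polysomal libraries each had a total mRNA partner of the same clone and replicate number.

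RPL10 (uL16) is among the last proteins to join the large (60S) ribosomal subunit and sits close to the catalytic centre. Pre-60S particles leave the nucleus with the adapter NMD3, which the exportin XPO1 recognises. In the cytoplasm RPL10 is loaded, the GTPase LSG1 releases NMD3, and SBDS with the GTPase EFL1 evicts eIF6, after which 60S can join 40S.

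Depth ranged from 8831180 to 22059792 reads per library. The labels name a clone and a number from 1 to 3 and do not say how libraries of a clone were separated, so p values measure the spread between these libraries. Same-numbered libraries of both genotypes deviated together, and the fit with the number as a block is therefore given where it changes a call. The study set aside the number 1 total mRNA library of WT clone 36 because it resembled R98S, and that library was not analysed here. All 6 markers listed for the line, among them Ptprc and Csf2rb, were read in every library. Of the B lineage markers, Cd79a (706 to 1293 normalized counts in total mRNA) and Cd79b (149 to 591) were read in every library, whereas Pax5 and Ebf1 reached at most 1.00 in any library. The B lineage list summed to 1122 to 1603 in R98S total mRNA and to 963 to 1158 in WT. The erythroid list summed to 215 to 1265 in R98S and to 501 to 2294 in WT, and Klf1 on it had 192 to 1864 over all libraries. The T lineage list summed to 36.5 to 102 in R98S and 13.4 to 211 in WT, the myeloid list to 2.76 to 411 and 33.0 to 213, and 6 stromal and epithelial markers to at most 13.0. By limma at an adjusted p under 0.1, which 30.3% of all genes tested in total mRNA passed, 1 B lineage gene of 2 tested was higher in R98S, 1 T lineage gene of 2 was higher and 1 lower, 1 myeloid gene of 2 was lower and 1 erythroid gene of 3 was lower. In polysomal RNA, where 13.5% of all genes passed, 1 B lineage gene of 2 tested and 1 T lineage gene of 1 were higher. There 1 myeloid gene of 2 and 1 erythroid gene of 2 were lower, and 2 of the 6 markers of the line were higher and 0 lower. The summed markers of the line lay between 117141 and 225499 in R98S total mRNA and between 60528 and 106080 in WT, without overlap. Nearly all of that sum is Csf2rb and Csf2rb2, and of the 6 markers 2 were higher and 2 lower in R98S, with log2 fold changes from -0.67 to 1.20. Their part in the results was not tested.

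The Rpl10 row needs a word on what it counts. Rpl10 lies on chromosome X from 74270812 to 74273135, plus strand, in GRCm38 (ENSMUSG00000008682). Of the 806 windows of 50 bases in its main coding transcript, 85.4% are also found in the annotation of 15 other genes, nearly all of them processed copies. Reads from such windows can fit several places, and the mapping quality filter of the authors may have dropped them. How many were lost was not tested. Of the 118 windows found in Rpl10 alone, 93 lie wholly in the 5′ untranslated region, 25 touch the coding sequence and 0 lie wholly in the 3′ untranslated region. The coding stretch around codon 98 shows how close the copies are, and it is the place that R98S changes in the human cDNA. The stretch covers codons 94 to 103 at chrX:74272268-74272297, plus strand, in exon 4 of 6, with codon 98 in capitals, and it is given with the same stretch of Rpl10-ps3 (chromosome 9), Rpl10l (chromosome 12) and Gm6564 (chromosome 5), from GENCODE M21 transcripts.
Rpl10: ttccatgtcatcCGTatcaacaagatgttg
Rpl10-ps3: ttccatgtcatcCGTatcaacaagatgttg
Rpl10l: ttccatgtcatcCGCatcaacaagatgctg
Gm6564: ttccctgtcatcTGTatcaacaaaatgttg
With positions counted from 1 at the 5′ end of the stretch, Rpl10l differs by T15C and T28C, and Gm6564 by A5C, C13T and G24A. Of 12 copies with a stretch of at most 6 mismatches, 8 matched Rpl10 over all 30 bases. The rows of the copies held few reads. Rpl10-ps3, which shares every one of the 688 shared windows, had at most 6 reads in a total mRNA library and 15 in a polysomal one, and Rpl10l had at most 1 and 2. In addition, 6.67% of the annotated exonic bases of Rpl10 overlap Snora70 on the same strand. Reads of the human cDNA can also align to this row where its sequence matches. Endogenous Rpl10, the human transgene and the filter on shared sequence cannot be told apart in its counts, and since every clone carries the shRNA, the row does not check the labels.

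The partners share little sequence with other genes. Nmd3 (chromosome 3, 69721985 to 69756373, plus strand), Lsg1 (chromosome 16, 30560494 to 30587592, minus strand), Sbds (chromosome 5, 130245731 to 130255530, minus strand), Eif6 (chromosome 2, 155819832 to 155826925, minus strand) and Xpo1 (chromosome 11, 23256041 to 23298249, plus strand) had between 0% and 1.65% of such windows elsewhere. Gm16098 overlaps 5.11% of the exonic bases of Eif6 on the opposite strand, and whether the counting used strand is not given in the sources used here.

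Levels between genes were compared as normalized counts per kilobase of annotated exon. This length merges the exons of all annotated transcripts, 2053 bases for Rpl10, 6192 for Lsg1 and 2033 for Sbds. Their main coding transcripts have 855, 3180 and 1548 bases. Levels by the latter lengths were not computed, so the order and overlaps below hold for merged exons only. In WT total mRNA the order of these levels was Rpl10 with 885 ± 786 (SD, n = 8), Eif6 with 562 ± 139, Xpo1 with 454 ± 143, Sbds with 352 ± 34.7, Lsg1 with 226 ± 89.7 and Nmd3 with 132 ± 55.7. The order was the same in R98S total mRNA, from 720.4 ± 317 for Rpl10 (SD, n = 9) to 120 ± 31.7 for Nmd3. The ranges of mean ± SD overlapped in both genotypes for Rpl10 and Eif6, for Eif6 and Xpo1, and for Xpo1 and Sbds. They did not overlap for Sbds and Lsg1 in either. For Lsg1 and Nmd3 they overlapped in WT but not in R98S. The Rpl10 level counts only the reads that could be placed.

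The comparison of total mRNA asked whether the transcripts of this pathway differ with the genotype. None of the 6 genes passed the test between R98S and WT in total mRNA (limma, adjusted p under 0.1), where 30.3% of all 11133 genes tested did, nor with the replicate number as a block, where 38.4% did. At an unadjusted p under 0.05 there were 0 of the 6 without the block and 1 with it, Eif6, where 35.4% and 41.3% of all genes reached it. edgeR and DESeq2 on the recovered reads called 0 of the 6, where they called 3321 and 3555 of all 11133 genes. edgeR with the block called 1, which was Eif6, where it called 4307 of all genes. The median log2 fold change of the 6 genes was -0.06, beside 0.00 over all genes tested, and each of the 6 changed sign under at least 1 alternative setting.

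Rpl10 had 901 normalized counts in the lowest, 1222 in the median and 2984 in the highest of 9 R98S total mRNA libraries. In the 8 WT libraries it had 620.3, 1352 and 5715. The highest value belongs to WT clone 29 with number 1 and the next WT library had 1756, so that the R98S range lay inside the WT range. Its log2 fold change was -0.08 (SE 0.32, 95% interval -0.76 to 0.59, adjusted p = 0.885), and 0.20 (adjusted p = 0.562) without that single library. These are levels of bulk cultures, in which fewer cells with a transcript and less of it per cell cannot be told apart.

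Among the partners, Nmd3 had 874 to 1938 normalized counts in R98S total mRNA (median 1235) and 806 to 2308 in WT (median 1053). Lsg1 had 976 to 1653 in R98S (median 1122) and 943 to 2391 in WT (median 1134). For both genes the R98S range lay inside the WT range, and the highest library of each genotype had number 1. Their log2 fold changes were -0.07 (SE 0.21, adjusted p = 0.840) and -0.12 (SE 0.18, adjusted p = 0.668). Within number 1 alone, with 3 R98S and 2 WT libraries, Lsg1 fell by 0.60 on the log2 scale (adjusted p = 0.0402), and within number 2 its fold change was 0.04.

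Sbds was the steadiest of the 6 genes in total mRNA. It had 583 to 839 normalized counts in R98S (median 685) and 572 to 789 in WT (median 719), and its log2 fold change was -0.04 with a 95% interval from -0.24 to 0.15 (adjusted p = 0.784). Xpo1 had 2047 to 5869 in R98S (median 2529) and 2366 to 5037 in WT (median 2845). Its log2 fold change was -0.01 (SE 0.21, adjusted p = 0.969), and number 3 had the highest mean in both genotypes, at 4503 in R98S and 4420.0 in WT. In R98S clone 35 the library with number 2 was higher, at 4156, than that with number 3, at 3535.

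Eif6 was the one member whose total mRNA level was higher in each R98S clone mean than in each WT clone mean. It had 1510.1 normalized counts in the lowest, 1631 in the median and 2450.4 in the highest R98S library, against 1008, 1401 and 2079.8 in WT. The clone means were 1684, 2060.1 and 1624 in R98S and 1604, 1593 and 1281 in WT, while the libraries of the genotypes overlapped. Clone means were higher in this way for 19.9% of all genes tested. The log2 fold change of 0.26 (SE 0.14) had an adjusted p of 0.188, or 0.105 with the replicate number as a block. It reached an adjusted p of 0.0827 without WT clone 28 with number 1 and 0.0753 without WT clone 29 with number 1. Without all libraries of number 1 the fold change was 0.33, and within number 1 alone it was -0.05. Over 26 omissions of a library, clone or number without the block, Eif6 was called in 3, with a lowest adjusted p of 0.0751. With the block and a clone left out, settings chosen after seeing the data, Eif6 was called in 1 of 6 cases (adjusted p = 0.0733). Over all 51 alternatives it was called in 6.

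**Figure D1:**
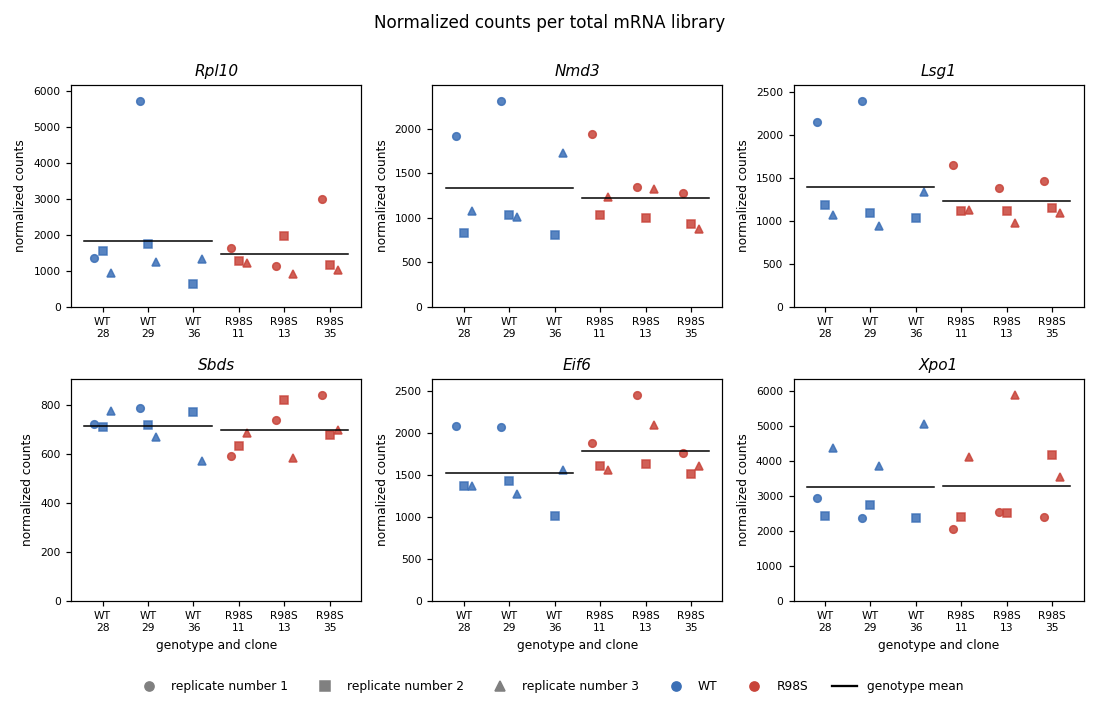
Normalized counts (linear axis from 0) of the 6 genes in each of 17 total mRNA libraries, by genotype and clone, with the replicate number as the marker shape and the genotype mean as a line. The genotypes overlap for every gene, and Rpl10 in WT clone 29 with number 1 stands apart at 5715.

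The comparison of polysomal RNA asked whether the ribosome-bound transcripts differ. Rpl10 was lower in R98S (limma, adjusted p = 0.0490), the only 1 of the 6 genes called, where 13.5% of 10707 genes were called in either direction and 5.87% as lower. With the replicate number as a block Rpl10, Nmd3 and Lsg1 were called as lower, 3 of the 6, where 30.9% of all genes were called and 15.7% as lower. The 6 log2 fold changes were all negative without the block, with a median of -0.34 beside -0.02 over all genes tested, and 5 of the 6 were negative with it. At an unadjusted p under 0.05 there were 2 of the 6 without the block and 3 with it, where 21.7% and 35.6% of all genes reached it. The clone means of R98S lay below those of WT for the same 3 genes, which held for 13.4% of all genes. These means mix replicate numbers unevenly, as WT clone 36 has a single polysomal library, with number 3.

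Rpl10 had 666 normalized counts in the lowest, 1117 in the median and 2046 in the highest of 8 R98S polysomal libraries. In the 6 WT libraries it had 1099, 2719 and 5567. Of the 8 R98S libraries, 4 lay below every WT library, and the other 4 lay within the WT range. The means were 1243 ± 564 (SD, n = 8) and 2977 ± 1617 (SD, n = 6). On the log2 scale Rpl10 fell by 1.20, with an SE of 0.36 and a 95% interval from -1.97 to -0.43.

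Number 3 was high in both genotypes. Mean polysomal Rpl10 in R98S was 967 for number 1, 728 for number 2 and 1863 for number 3, and in WT it was 2172, 1478 and 4245. Within each number, all R98S libraries lay below all WT libraries, so that 8 of 8 were lower than their same-numbered WT libraries, which held for 6.29% of all genes. Number 1 has a single WT polysomal library. Among the 8, R98S clone 13 with numbers 1 and 2 were close to each other (chi-square of 4.36 per gene). So were R98S clones 11 and 35 with number 3 (9.6), and the fits counted all as separate libraries. These limits hold for the same counts of Nmd3 and Lsg1 below. With the number as a block the log2 fold change was -1.12 (SE 0.17, adjusted p = 0.000198).

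Without the block the call for Rpl10 was lost under some omissions, while the log2 fold change at these losses stayed between -1.21 and -0.98. It was lost without WT clone 28 with number 3 (adjusted p = 0.116), WT clone 29 with number 3 (0.113) or WT clone 36 with number 3 (0.106), which is the single polysomal library of that clone. It was also lost without R98S clone 13 (0.186), R98S clone 35 (0.139), WT clone 29 (0.168) or all libraries of number 1 (0.286). With the block, in settings chosen after seeing the data, it held when any of the 6 clones was left out, with log2 fold changes from -1.24 to -0.82 and adjusted p values from 0.000197 to 0.0148. It also held over numbers 1 and 2 alone with the block, likewise chosen after seeing the data (-1.08, adjusted p = 0.0265).

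Nmd3, the export adapter released at the time of RPL10 loading, had 1024 normalized counts in the lowest, 1358 in the median and 3522 in the highest R98S polysomal library. In WT it had 1191, 3317 and 6105. As for Rpl10, 4 of the 8 R98S libraries lay below every WT library, and within each number all 8 lay below the WT libraries of that number. The log2 fold change was -0.82 (SE 0.40, adjusted p = 0.249), and -0.68 with the block (SE 0.15, adjusted p = 0.00383). In the same settings the blocked call held when any clone was left out, with an adjusted p of at most 0.0686, but not over numbers 1 and 2 alone (-0.57, adjusted p = 0.146). Without the block, leaving out WT clone 28 with number 2 brought the adjusted p to 0.0934.

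Lsg1, the GTPase that frees NMD3, had 882 normalized counts in the lowest, 1068 in the median and 1337 in the highest R98S polysomal library. In WT it had 1027, 1399.5 and 1556. Of the 8 R98S libraries 3 lay below every WT library, and 7 lay below all WT libraries of their own number. The log2 fold change was -0.32 (SE 0.15, adjusted p = 0.227), and -0.36 with the block (SE 0.13, adjusted p = 0.0593). With a clone left out the blocked call held in 2 of 6 cases, without R98S clone 13 and without WT clone 28, and the adjusted p reached at most 0.198 in the others. With the clone as a random block beside the replicate number, Lsg1 was not called (-0.38, adjusted p = 0.123), while Rpl10 (adjusted p = 0.00121) and Nmd3 (adjusted p = 0.0169) were. With 1 mean per clone Rpl10 was called (-1.18, adjusted p = 0.0398), whereas Nmd3 (-0.995, adjusted p = 0.147) and Lsg1 (-0.36, adjusted p = 0.337) were not.

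Sbds, Eif6 and Xpo1 were not called in polysomal RNA in either fit. Sbds had 737 to 1374 normalized counts in R98S (median 974) and 722 to 1785 in WT (median 1132), with a log2 fold change of -0.24 (SE 0.22, adjusted p = 0.615). Eif6 had 1721 to 4418 in R98S (median 2654) and 1750.0 to 3598 in WT (median 2834), with a log2 fold change of -0.05 (95% interval -0.55 to 0.45, adjusted p = 0.940) that turned positive, at 0.03, with the block.

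Xpo1, the exportin, had the widest polysomal range in R98S, from 752 to 5910 normalized counts (median 1617), against 1396 to 3846 in WT (median 2223). The highest library was R98S clone 13 with number 3, and the next had 2668, whereas 4 of the 8 R98S libraries lay below every WT library. The log2 fold change was -0.36 (SE 0.39, adjusted p = 0.689), and within number 3 alone it was 0.07. Within number 3 alone, where limma called 2234 of 10707 genes, Sbds fell by 0.53 on the log2 scale (adjusted p = 0.0936). Rpl10 (-1.16, adjusted p = 0.0110), Nmd3 (-0.81, adjusted p = 0.0265) and Lsg1 (-0.51, adjusted p = 0.0760) were called there as well. Over numbers 1 and 2 with the block the fold change of Sbds was 0.15.

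**Figure D2:**
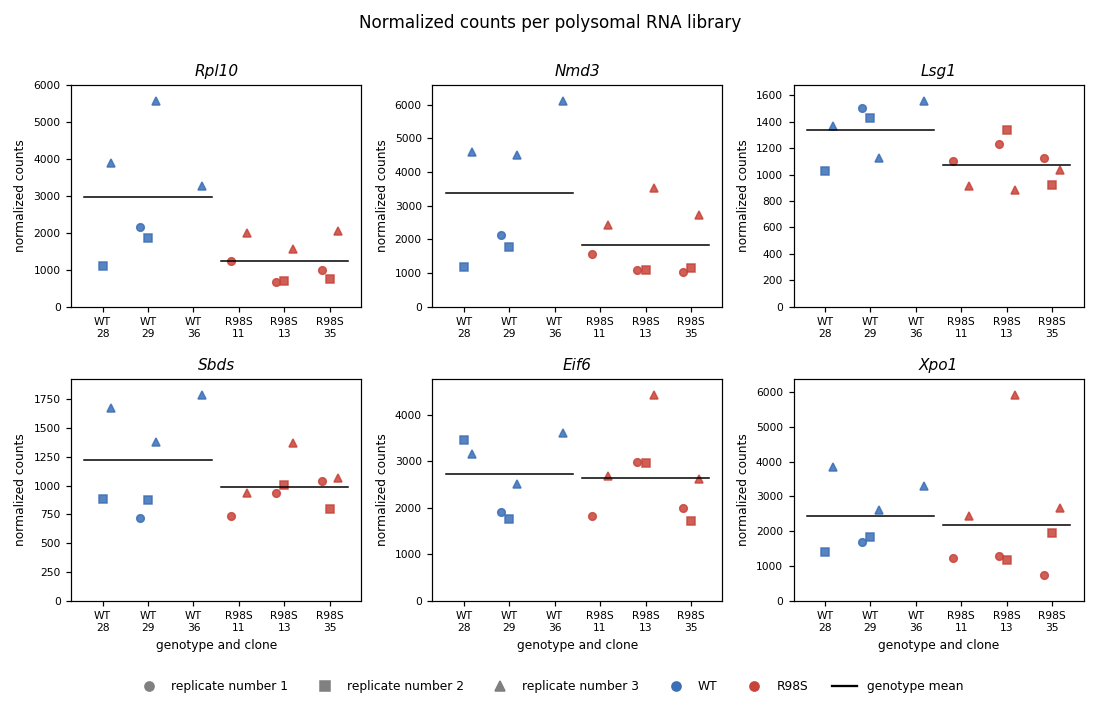
Normalized counts (linear axis from 0) of the 6 genes in each of 14 polysomal libraries, by genotype and clone, with the replicate number as the marker shape and the genotype mean as a line. For Rpl10 and Nmd3 the number 3 libraries are the high ones within both genotypes, and every R98S library lies below the WT libraries with the same marker.

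The per-culture ratio of polysomal to total mRNA asked whether these transcripts are loaded on polysomes to a different extent. The tables were normalized separately, so the log2 ratio is a relative value, and 0 need not be the loading of a middle gene in a given culture. None of the 6 genes passed the test between R98S and WT (limma, adjusted p under 0.1), where 4 of 10627 genes did (0.0376%), and 50 (0.47%) with the block. At an unadjusted p under 0.05 there were 0 of the 6 without and 2 with the block, namely Rpl10 and Nmd3, where 5.96% and 12.4% of all genes reached it. edgeR on the matched libraries called 0 of the 6 with and without the block, where it called 62 and 1 of all 10627 genes. All 6 log2 differences were negative, with a median of -0.31 beside 0.01 over all genes, and the comparison shares its polysomal libraries with the one before.

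The log2 ratio of Rpl10 was -1.59 in the lowest, -0.52 in the median and 1.00 in the highest of 8 R98S cultures. In the 6 WT cultures it was -1.40, 0.68 and 2.15. Of the R98S cultures 2 lay below every WT culture, and the lowest WT culture was clone 29 with number 1, which had the high total mRNA value. The difference was -0.91 (SE 0.57, 95% interval -2.13 to 0.30, adjusted p = 0.866), and -0.61 with the block (SE 0.25, adjusted p = 0.339). Without the block it was -0.60 when WT clone 29 with number 3 was left out, and -0.37 without all libraries of number 3. Over its 46 alternatives it lay between -1.31 and -0.28. In an alternative chosen after seeing the data, the block without WT clone 29 with number 1, Rpl10 was called at -0.94 (adjusted p = 0.0556). That setting called 605 genes in all.

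The log2 ratio of Nmd3 was -0.32 in the lowest, 0.21 in the median and 1.65 in the highest R98S culture, and -0.11, 1.30 and 2.15 in WT. Within each number, all 8 R98S cultures lay below the WT cultures of that number, which held for 0.678% of all genes. Number 1 has a single WT culture. The difference was -0.77 (SE 0.42, adjusted p = 0.844), and -0.49 with the block (SE 0.14, adjusted p = 0.157). In the same alternative chosen after seeing the data, the block without WT clone 29 with number 1, Nmd3 was called at -0.58 (adjusted p = 0.0563).

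The ranges of the other ratios overlapped between the genotypes. That of Lsg1 was -0.58 to 0.26 in R98S (median -0.22) and -0.67 to 0.40 in WT (median 0.24), with a difference of -0.27 (SE 0.20, adjusted p = 0.902). For Xpo1 the ratio was below 0 in 13 of 14 cultures, from -1.67 to 0.01 in R98S (median -0.87) and from -0.79 to -0.18 in WT (median -0.57). Its difference was -0.31 (SE 0.22, adjusted p = 0.902), with 4 of the 8 R98S cultures below every WT culture.

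Sbds and Eif6 had positive log2 ratios in all but 1 and 2 cultures. Sbds had a median of 0.33 in R98S and 0.68 in WT, and Eif6 of 0.50 and 1.09. Their differences were -0.24 (SE 0.26, adjusted p = 0.931) and -0.31 (SE 0.26, adjusted p = 0.911). Among all genes of the same culture, the ratio of Xpo1 had a median percentile of 17.6 in R98S and 41.2 in WT, and that of Sbds 85.5 and 85.2. Clone means of the ratio were lower in R98S without overlap for Rpl10, Nmd3, Lsg1 and Xpo1, 4 of the 6, which held for 7.73% of all genes.

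**Figure D3:**
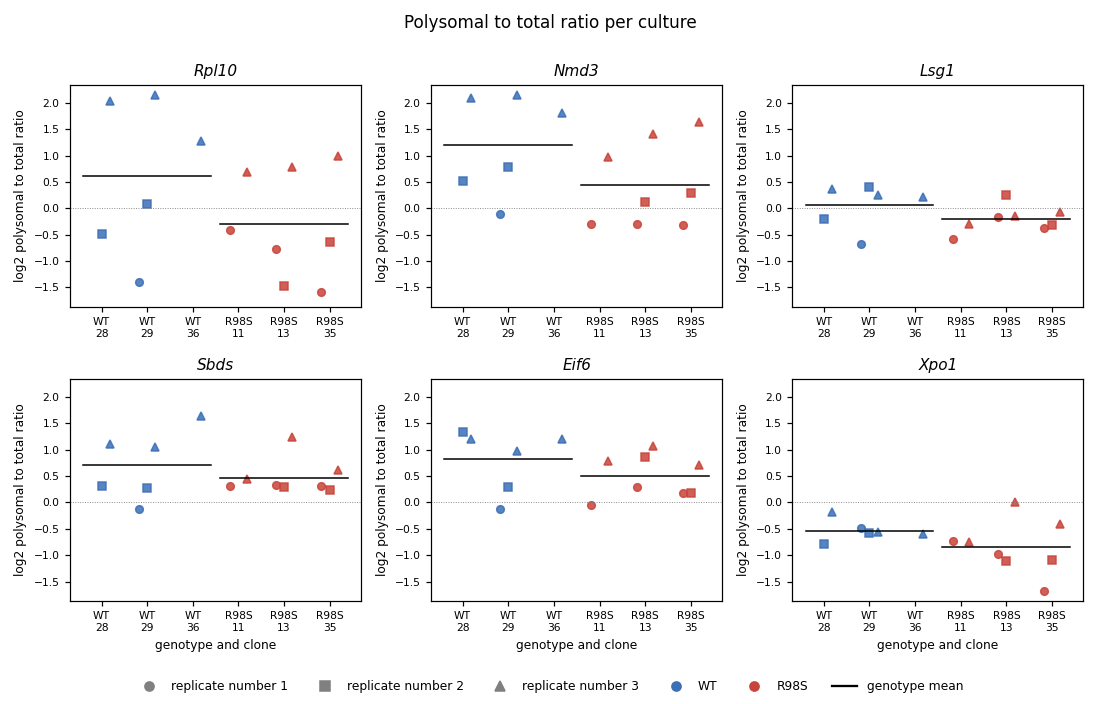
Log2 polysomal to total ratio of the 6 genes in each of 14 cultures, by genotype and clone, with the replicate number as the marker shape and the genotype mean as a line; the dotted line marks 0. Nmd3 in R98S lies below WT within each marker shape, and Rpl10 spans from -1.59 to 2.15.

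**Figure D4:**
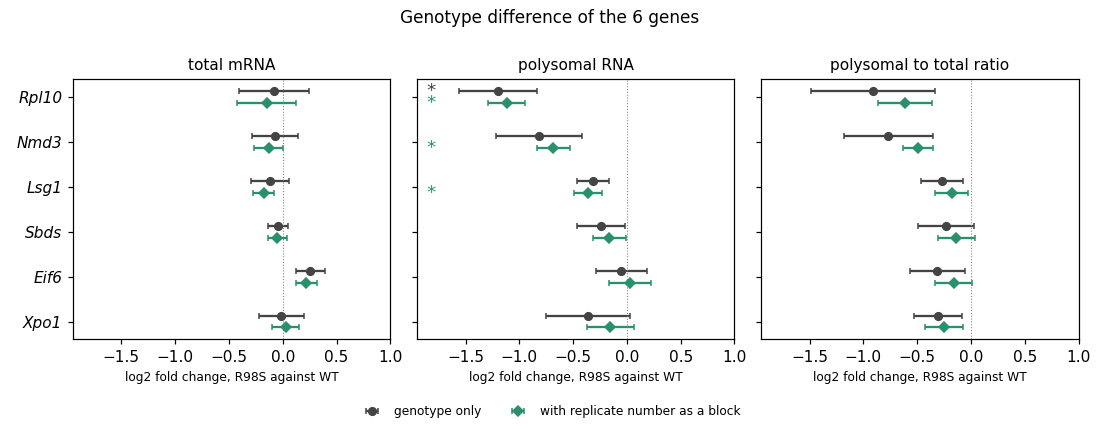
Log2 fold change of R98S against WT for the 6 genes in total mRNA, polysomal RNA and their ratio, with SE bars, from the fit of the genotype alone (circles) and with the replicate number as a block (diamonds). Asterisks mark an adjusted p under 0.1, which Rpl10 reached in polysomal RNA in both fits and Nmd3 and Lsg1 with the block.

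To see how the members varied apart from the genotype, clones and replicate numbers were compared. No member passed the test between the 3 clones of a genotype in total mRNA, where 0.952% of genes in R98S and 0.0269% in WT did (limma F test). In polysomal RNA no member did either (0.103% of genes in R98S and 0.318% in WT). With the replicate number as a block Eif6 differed between R98S clones (F = 10.4, adjusted p = 0.0885), where 2.9% of genes did, and no member passed it between WT clones, where 2.04% did. Clone 13 had a mean of 3454 ± 834 normalized counts of polysomal Eif6 (SD, n = 3), clone 35 had 2113 ± 465 (SD, n = 3) and clone 11 had 2250.0 ± 609 (SD, n = 2). WT clones spread as widely, from 2056 for clone 29 to 3598 for the single library of clone 36.

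Between replicate numbers, 5 of the 6 members differed in total mRNA, where 43.5% of all genes did, and 4 of the 6 in polysomal RNA, where 64.9% did. The exception in total mRNA was Sbds (adjusted p = 0.449), and in polysomal RNA they were Lsg1 (adjusted p = 0.450) and Eif6 (adjusted p = 0.107). In total mRNA Nmd3 and Lsg1 were highest for number 1, at means of 1519 and 1500.1 normalized counts in R98S and 2112 and 2273 in WT. In polysomal RNA Nmd3 was highest for number 3, at 2893 in R98S and 5065 in WT.

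The ratio followed the number as well. The log2 ratio of Rpl10 lay between -1.59 and -0.40 in the 4 cultures with number 1, between -1.47 and 0.08 in the 4 with number 2 and between 0.70 and 2.15 in the 6 with number 3. For Nmd3 the ranges were -0.32 to -0.11, 0.13 to 0.78 and 0.97 to 2.15, which do not overlap. Number 1 holds 3 R98S cultures but 1 WT culture, so the genotype and the number are not balanced.

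Other genes of the pathway were taken from lists. The list of late cytoplasmic factors and that of large subunit proteins share 4 ribosomal proteins, Rpl24, Rplp0, Rplp1 and Rplp2. Of 14 tested late cytoplasmic 60S factors other than the members, 4 were higher and 1 was lower in R98S total mRNA (limma, adjusted p under 0.1), a share of 35.7% beside 30.3% of all genes tested, with a median log2 fold change of 0.26. Bccip, the counterpart of a yeast chaperone of uL14, averaged 1482 ± 308 normalized counts (SD) over the 9 R98S libraries and 751 ± 273 over the 8 of WT. Its log2 fold change was 1.02 (adjusted p = 0.000513). Aamp, the counterpart of the yeast Rpl10 chaperone Sqt1, followed with 0.77 (adjusted p = 0.000184), and Eftud1, an older symbol of the GTPase EFL1 that works with SBDS, rose by 0.36 (adjusted p = 0.0341). Dnajc21, a cochaperone of late 60S maturation, fell by 0.35 on the log2 scale (adjusted p = 0.0184). The remaining higher gene was Rplp2, a ribosomal protein that is counted again among those of the large subunit below.

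In polysomal RNA 1 gene of this list was called (7.14%, beside 13.5% of all genes), Heatr3, a chaperone of the 5S RNA-binding proteins, which fell by 0.67 on the log2 scale (adjusted p = 0.0340). With the block Bccip was higher (0.49, adjusted p = 0.0290), and Heatr3 and Mrto4, which holds the place of the stalk protein P0, were lower (Mrto4 -0.31, adjusted p = 0.0980). In the ratio limma called 0 of 14 in either fit, beside 0.0376% of all genes without and 0.47% with the block. There was 1 of the 14 at an unadjusted p under 0.05 without the block, beside 5.96% of all genes, and the median log2 difference was -0.18.

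Of 20 nuclear late 60S factors, 5 were higher and 1 was lower in R98S total mRNA, a share of 30% where 30.3% of all genes were called, with a median log2 fold change of 0.31. Tex10 (0.79, adjusted p = 0.000280), Mdn1 (0.68, adjusted p = 0.0227), Gnl3 (0.85, adjusted p = 0.0240) and Bop1 (0.82, adjusted p = 0.0735) had the smallest adjusted p values. Mdn1 is the AAA ATPase that strips assembly factors from pre-60S, and Tex10 belongs to the Rix1 complex it works with. In polysomal RNA limma called 0 of the 20 without the block, beside 13.5% of all genes, with 2 at an unadjusted p under 0.05, beside 21.7%. It called 6 with it, where 30.9% of all genes were called. Of these 6, 4 were higher, led by Tex10 (0.57, adjusted p = 0.00493). In the ratio 0 were called in either fit, beside 0.0376% of all genes without and 0.47% with the block. There were 3 of the 20 at an unadjusted p under 0.05, beside 5.96% of all genes, and the median was -0.33.

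Of 11 partners of nuclear export, limma called 0 in total mRNA, polysomal RNA and the ratio, where 30.3%, 13.5% and 0.0376% of all genes were called. At an unadjusted p under 0.05 there were 3, 1 and 0, beside 35.4%, 21.7% and 5.96% of all genes. With the block 3 were called in total mRNA, beside 38.4% of all genes, and 1 in polysomal RNA, beside 30.9%. The latter was Ranbp3, a cofactor of XPO1, with a blocked log2 fold change of -0.51 (adjusted p = 0.0174). Among 6 other exportins 1 was called in total mRNA (16.7%, beside 30.3% of all genes), Xpo6, the exporter of actin, which was higher (log2 fold change 0.52, adjusted p = 0.00661). Xpot, the exporter of tRNA, had -0.43 in polysomal RNA (adjusted p = 0.101) and -0.49 with the block (adjusted p = 0.00937).

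The other proteins of the large subunit were set beside Rpl10. Of 46 tested, 4 were higher and 4 were lower in total mRNA, a share of 17.4% beside 30.3% of all genes, with a median log2 fold change of -0.06. Rpl36 fell by 0.45 on the log2 scale (adjusted p = 0.00217) and Rpl37 by 0.25 (adjusted p = 0.0309), whereas Rpl27a rose by 0.35 (adjusted p = 0.0212) and Rplp2 by 0.28 (adjusted p = 0.0435). In polysomal RNA limma called 0 of the 46 without the block, beside 13.5% of all genes, with 0 at an unadjusted p under 0.05, beside 21.7%. It called 7 with it, all higher, where 30.9% of all genes were called. Their log2 fold changes without the block lay between -0.47 and 0.44, and the value of -1.20 for Rpl10 was outside that range. In the ratio 0 of the 46 were called in either fit, beside 0.0376% and 0.47% of all genes, and 0 reached an unadjusted p under 0.05, beside 5.96%. Their log2 differences lay between -0.21 and 0.32. The Rpl10 value of -0.91 was outside, but its 95% interval from -2.13 to 0.30 overlaps that range and it was not called (limma, adjusted p = 0.866).

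Genes whose log2 levels ran most like those of each member were found by Pearson correlation over libraries. Candidates had at least 100 normalized counts on average. Over 17 total mRNA libraries these were Mrpl40, Lsm2 and Snrpd3 for Rpl10 (r = 0.847 to 0.836), Heatr3, Fabp5 and Wdr43 for Nmd3 (0.935 to 0.916), and Pcsk4, Angptl4 and Taf5l for Lsg1 (0.919 to 0.91). For Sbds they were 1110032A03Rik, Sap30l and Otud5 (0.77 to 0.751), for Eif6 Mrps7, Ctnnbl1 and Eif4a3 (0.961 to 0.959), and for Xpo1 Orc4, Mmd and Ppp3r1 (0.955 to 0.931). Sbds had the lowest such values of the 6 genes. The points share libraries, genotype and replicate number, so these values are descriptions.

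Over 14 polysomal libraries other genes came first for every member. They were Alg14, Eif4a2 and Gbas for Rpl10 (r = 0.971 to 0.953), Tomm70a, Prps1 and Trappc13 for Nmd3 (0.982 to 0.977), and Mina, Dpp9 and Arhgap10 for Lsg1 (0.897 to 0.886). For Sbds they were Psmc3ip, Nt5c3b and Fancl (0.952 to 0.937), for Eif6 Psmc5, Psmb10 and Phb (0.953 to 0.93), and for Xpo1 Actr6, Tra2b and Usp14 (0.963 to 0.942).

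Among the members themselves the closest pair was Rpl10 and Nmd3 in polysomal RNA, with r = 0.901 over 14 libraries and 0.888 after the genotype means were removed. In total mRNA the same pair had r = 0.536 over 17 libraries, and Nmd3 and Lsg1 were closest with 0.83. Lsg1 and Rpl10 had r = 0.272 in polysomal RNA and -0.201 after the genotype means were removed. Libraries of the same number deviate together, and how much of these values the number carries was not tested.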

How the data were processed

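The authors prepared stranded poly(A) libraries, removed the leading base with seqtk and rRNA and tRNA reads with Bowtie2, aligned to mm10 (GRCm38) with TopHat2 2.0.11 and dropped alignments of low mapping quality. What they deposited is a signal: exon read counts divided by DESeq2 size factors, which were fitted separately in each table. HTSeq is named in the submitters' processing notes, and the annotation and strand setting are not given in the sources used here.

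Values were whole multiples of a step in every library, so whole reads were recovered (100% of values within 0.01). Values were taken as log2(value + 1), genes averaging 10 or more entered the fits, and limma 3.58.1 (variance trend, R 4.3.3) compared the genotypes, with Benjamini-Hochberg adjustment over all genes tested, two-sided, at an adjusted p under 0.1. Fold changes on this scale understate those of low genes. The study compared mRNA levels between genotypes with DESeq2, and translational efficiency with Babel. The ratio is log2(polysomal + 1) minus log2(total + 1) of a culture. For numbers 1 to 3, group-mean deviations of same-numbered libraries of the 2 genotypes correlated at 0.62, 0.549 and 0.481 (total mRNA), at 0.695, 0.666 and 0.867 (polysomal RNA), and at 0.671, 0.538 and 0.812 (ratio), so the numbers pair the libraries, as judged from these data. The members and lists were chosen with earlier results of these data known. Named genes are the members, copies of Rpl10, called list genes (at most 4 per list and comparison, by adjusted p) and the 3 genes most like each member. The fits were also run on simulated counts that held no effect of clone or replicate number, so they cannot check p values under such effects. Alternatives were edgeR 4.0.16, DESeq2 1.42.0, other scalings, filters, pseudocounts, blocks and left-out libraries. Closest libraries of a group differed by more than sampling noise. The closest pair was polysomal R98S clone 13 with numbers 1 and 2, at a chi-square of 4.36 per gene. The next pair of all joined different clones, polysomal R98S clones 11 and 35 with number 3, at 9.6. The next polysomal pair within a clone was R98S clone 35 with numbers 1 and 2, at 28.6. All were counted as separate libraries.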

Additional observations from a re-analysis of the deposited data

Results flagged for a closer look

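Of 36 sets of values tested for a single sample far from the others (6 genes in the 4 groups and in the ratio of each genotype), 5 were flagged, and chance flags about 1 in 20 sets. Rpl10 in WT total mRNA was 5715 normalized counts in clone 29 with number 1, and the next library had 1756. Nmd3 in R98S total mRNA was 1938 in clone 11 with number 1, and the next had 1341. Both libraries have number 1.

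The other 3 flags fell on the culture of R98S clone 13 with number 3. Its polysomal library had 4418 normalized counts of Eif6, where the next R98S library had 2994, and 5910 of Xpo1, where the next had 2668. Its log2 ratio of Sbds was 1.24, where the next R98S culture had 0.61. Without this culture no member changed its call in polysomal RNA or in the ratio.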

How the results depend on the processing

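The 18 fold changes of the members were recomputed in 864 alternative fits, of which 758 kept direction and side of the threshold, 27 came past it, 9 fell short of it and 70 changed sign, 0 of these with a call. Polysomal Rpl10 was lower in R98S in all 47 of its alternatives and called in 38, with adjusted p values from 0.000183 to 0.286. Polysomal Nmd3 and Lsg1 were also negative in all 47, called in 12 and 5. The cause of each change was not tested. Limits are the 3 clones a genotype, the single polysomal library of WT clone 36 and the uneven numbers. Each member had at least 414 reads in every library, and the part of depth in the results was not tested.

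With the replicate block, 3307 genes were called in polysomal RNA (1449 without) and 50 in the ratio (4 without), Eif6 in polysomal RNA became 0.029 and Xpo1 in total mRNA 0.027. The block raised the genes called between R98S clones from 106 to 454 in total mRNA and from 11 to 310 in polysomal RNA, and between WT clones from 3 to 17 and from 34 to 218. In limma the replicate block changed the polysomal calls of Nmd3 and Lsg1 and the clone difference of Eif6, and no other call of a member.

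With the clone as a random block the ratio had 80 calls, and with the replicate block added 59, with 2381 in polysomal RNA and Xpo1 in total mRNA at 0.027. With 1 mean per clone there were 751 calls in polysomal RNA and 0 in the ratio. In the ratio a pseudocount of 5 gave 2 calls, and TMM, quantile normalization and edgeR 1 each. edgeR with the replicate block gave 3288 calls in polysomal RNA and 62 in the ratio. Quantile normalization turned Eif6 in polysomal RNA to 0.088 and Xpo1 in total mRNA to 0.061, and edgeR, edgeR with the replicate block and DESeq2 turned the latter to 0.022, 0.065 and 0.010. edgeR with the block gave Eif6 0.039 in polysomal RNA.

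Within numbers 1, 2 and 3 alone, 1366, 241 and 1047 genes were called in total mRNA (3369 over all), and within numbers 2 and 3, 321 and 2234 in polysomal RNA. The ratio had 25 calls within number 3. Within number 1, Eif6 in total mRNA was -0.047. Within number 2, total mRNA values were 0.26 for Rpl10, 0.16 for Nmd3, 0.037 for Lsg1 and 0.23 for Xpo1, and polysomal ones -0.97 for Rpl10 (adjusted p = 0.230) and 0.034 for Sbds. Within number 3, Xpo1 was 0.0019 in total mRNA, the polysomal value 0.069 and the ratio 0.067, and Eif6 was 0.042 in polysomal RNA.

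The 2 settings that follow, those that leave out a clone with the block, and edgeR with the block in the ratio were chosen after seeing the data. With the block and without WT clone 29 with number 1, 2771 genes were called in polysomal RNA and 605 in the ratio. In that ratio Rpl10 was called at -0.94, and Nmd3 was called as well. Rpl10 and Xpo1 in total mRNA were 0.12 and 0.022, and Xpo1 in polysomal RNA 0.0057. Over numbers 1 and 2 with the block, 8 genes were called in the ratio. There Lsg1 and Sbds were 0.057 and 0.18, Sbds and Eif6 in polysomal RNA 0.15 and 0.018, and Xpo1 in total mRNA 0.041.

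Apart from the 2 settings just given, leaving out a library, clone or number without the block, or a clone with it, gave between 1338 and 4159 calls in total mRNA. Polysomal RNA had 608 to 3434 and the ratio 0 to 860. The lowest counts came without number 3 in total mRNA and without number 1 in polysomal RNA, and several settings gave 0 in the ratio. In total mRNA Rpl10 ranged from -0.35 to 0.32, Nmd3 from -0.24 to 0.055, Lsg1 from -0.22 to 0.0031, Sbds from -0.091 to 0.018 and Xpo1 from -0.17 to 0.12. In polysomal RNA the ranges were -1.45 to -0.82 for Rpl10, -0.61 to 0.0057 for Xpo1, -0.51 to 0.12 for Sbds and -0.42 to 0.23 for Eif6. In the ratio Sbds ranged from -0.55 to 0.14 and Eif6 from -0.75 to 0.024.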
